A study of Mus musculus with 8 samples.

Results

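The genes described here are the 3 NR4A nuclear receptors, Nr4a1, Nr4a2 and Nr4a3, and the 3 retinoid X receptors, Rxra, Rxrb and Rxrg. They were followed across 8 microarrays of cultured mouse hippocampal neurons. A probe was a member when its transcript accession belongs to one of these genes in RefSeq, which gave 9 of the 39429 probes that are not controls, for 6 of the 20140 genes named on the arrays. Nr4a1 had the single probe A_51_P239654 and Nr4a2 the probes A_52_P494622 and A_55_P1983508. Nr4a3 had A_51_P128397, printed as 10 spots on each array. Rxra had A_51_P307370 and A_55_P2074331, Rxrb had A_55_P2008609, and Rxrg had A_51_P513311 and A_55_P2044359.

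Per the labels, the 8 samples came from dissociated hippocampal neurons infected with lentivirus after 10 days in culture, and RNA was taken 6 days later. Of these, 4 carried GFP and 4 carried Nr4a1 with a Flag tag. Neither the promoter driving each transgene nor the strain or age of the mice is stated there. Culture RNA was labelled with Cy5 and hybridised against Universal Mouse Reference RNA in Cy3, so a level below is the log2 ratio of culture over reference, and no dyes were swapped. Pair tags in the labels join 1 GFP-labelled and 1 Flag-Nr4a1-labelled array into each of 4 replicates. Replicate 4 of both groups makes up batch 2. Whether a replicate was a culture of its own is not stated, so the p-values reflect only sample-to-sample spread, possibly technical. The 4 GFP-labelled arrays lay on 1 slide, Flag-Nr4a1-labelled replicates 1 to 3 on another, and replicate 4 on another again. No slide held both groups, so slide and transgene cannot be told apart in any difference below.

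NR4A receptors are transcription factors that act without a known physiological ligand. Their genes are immediate early genes: in neurons, electrical activity and cyclic AMP switch them on within minutes, largely through CREB at cyclic AMP response elements (CREs) and through MEF2 factors. They bind DNA alone at the NBRE, and NR4A1 and NR4A2, but not NR4A3, also bind as heterodimers with an RXR. RXRs bind 9-cis retinoic acid and serve as the common partner of the retinoic acid, thyroid hormone, vitamin D, PPAR and LXR receptors.

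The windows around the NR4A start sites are shown because CREs link these genes to neuronal activity and because Nr4a1 and Nr4a2 moved together in the data that follow. They run from 250 bases before to 50 bases after a RefSeq start on GRCm38.p6, printed on the gene's own strand. Nr4a1 lies at chr15:101253902-101274795 on that build, and its window covers chr15:101266596-101266895 inside that span. Nr4a2 lies at chr2:57106830-57124003, with its window at chr2:57123954-57124253 on the minus strand. Nr4a3 lies at chr4:48045078-48086447, with its window at chr4:48045055-48045354. Capitals mark TGCGTCA in Nr4a1, and TGACG or its reverse complement CGTCA, the core of a CRE, in Nr4a2 and Nr4a3.
Nr4a1: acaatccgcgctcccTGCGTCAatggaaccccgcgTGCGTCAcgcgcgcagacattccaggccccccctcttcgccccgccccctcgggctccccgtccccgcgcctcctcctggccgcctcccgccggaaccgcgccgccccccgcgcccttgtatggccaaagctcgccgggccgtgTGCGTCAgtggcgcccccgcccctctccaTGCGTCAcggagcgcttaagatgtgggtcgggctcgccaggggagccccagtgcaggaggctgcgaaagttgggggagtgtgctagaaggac
Nr4a2: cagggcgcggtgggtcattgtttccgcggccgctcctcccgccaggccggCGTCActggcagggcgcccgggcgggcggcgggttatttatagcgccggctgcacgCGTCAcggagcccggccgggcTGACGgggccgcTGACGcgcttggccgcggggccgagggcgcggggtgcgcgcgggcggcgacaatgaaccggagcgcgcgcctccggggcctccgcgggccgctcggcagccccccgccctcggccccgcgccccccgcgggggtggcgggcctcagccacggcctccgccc
Nr4a3: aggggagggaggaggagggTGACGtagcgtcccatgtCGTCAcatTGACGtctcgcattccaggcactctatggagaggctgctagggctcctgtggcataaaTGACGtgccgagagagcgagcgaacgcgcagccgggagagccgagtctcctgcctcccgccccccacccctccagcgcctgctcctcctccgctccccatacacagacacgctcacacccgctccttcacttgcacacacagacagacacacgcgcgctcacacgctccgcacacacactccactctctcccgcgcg
The Nr4a1 window held 4 copies of TGCGTCA, all on the printed strand, the first starting 235 bases before the start and the last ending 36 bases before it. Both strands were searched, and each TGCGTCA contains a CGTCA. Of 32851 windows of mouse genes, 2.12% held at least 1 TGCGTCA, and Nr4a1's was the only 1 with 3 or more. The Nr4a2 and Nr4a3 windows held 4 copies each of TGACG or CGTCA, as did that of Nr4a1, against 20.8% of all windows with at least 1 and 0.231% with 4 or more. The whole palindrome TGACGTCA, found in 1.79% of windows, was in none of the 9 windows of the 6 genes. A match is only a match of letters, not a site shown to be bound.

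The RXR windows held fewer of these letters. Rxrb (chr17:34031812-34038403) had 1 CGTCA over 2 windows, and the windows of Rxra (chr2:27676445-27763319) and Rxrg (chr1:167598362-167639623) had none. The NBRE letters AAAGGTCA, present in 1.51% of windows on either strand, occurred once in 1 of the 2 windows of Rxra and once in 1 of the 2 windows of Rxrg. None of the 3 NR4A windows held them.

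Before the results, the arrays themselves stand as follows. Median signals were 137 to 194 in Cy5 and 141.5 to 154 in Cy3, and the number of arrays limits the precision. All 7 neuronal markers were well above background on all 8 arrays, at mean log2 ratios of 4.23 to 4.38 in GFP-labelled and 4.17 to 4.39 in Flag-Nr4a1-labelled arrays. Of 7 oligodendrocyte lineage markers, 4 rose and 2 fell (85.7% called beside 23.8% of all probes). Their mean was 0.46 to 0.66 in GFP-labelled against 0.82 to 0.91 in Flag-Nr4a1-labelled arrays. The microglial mean, over the 5 of 8 markers that could be tested, was -1.18 to -1.11 against -1.37 to -1.27, with Cx3cr1, C1qa and P2ry12 too dim to test. Of those 5, Csf1r differed by -0.75 and was called, and Aif1, Itgam, C1qb and Tyrobp differed by -0.08 to 0.01 and were not called. Fibroblast and meningeal markers stood at a mean of -3.999 to -3.88 against -4.29 to -4.16 (5 of 5 tested, 2 lower). Lum and Dcn were the 2 called lower. Col1a2, Col3a1 and Col1a1 differed by 0.17, 0.10 and -0.11 and were not called, so the set did not fall as a whole. The oligodendrocyte, microglial and fibroblast means did not overlap between the groups. Of single probes with a value on all arrays, 23.8% did not overlap either. The part of these markers in the results below was not tested. In such mixed cultures, fewer cells of a type and less RNA per cell cannot be told apart.

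Of the 9 probes, 8 were bright enough to test, and 2 passed: the Rxrb probe was higher and 1 of the 2 Rxrg probes lower in the Flag-Nr4a1-labelled arrays (limma, pair as a block, adjusted p under 0.05). Across the whole array 23.8% of 25780 tested probes were called, 12.1% higher and 11.7% lower, so 2 of 8 is near that background. Nr4a1 itself and both Nr4a2 probes were not called. The Rxrb call was not shared by the Cy5 channel alone, and the Rxrg call rested on a probe whose reference signal was near background, as set out gene by gene. No call of a member remained when slide was added as a random block beside the pair (every adjusted p 1.00), a fit in which 14 of the 25780 probes were called (0.0543%). As no slide held both groups, that fit compares slide with slide. Its slide correlation was 0.863 and its median SE 0.231, against 0.066 in the main fit. It had little power to call any probe, so calls lost in it, here and in the lists below, do not separate slide from transgene.

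**Figure D1:**
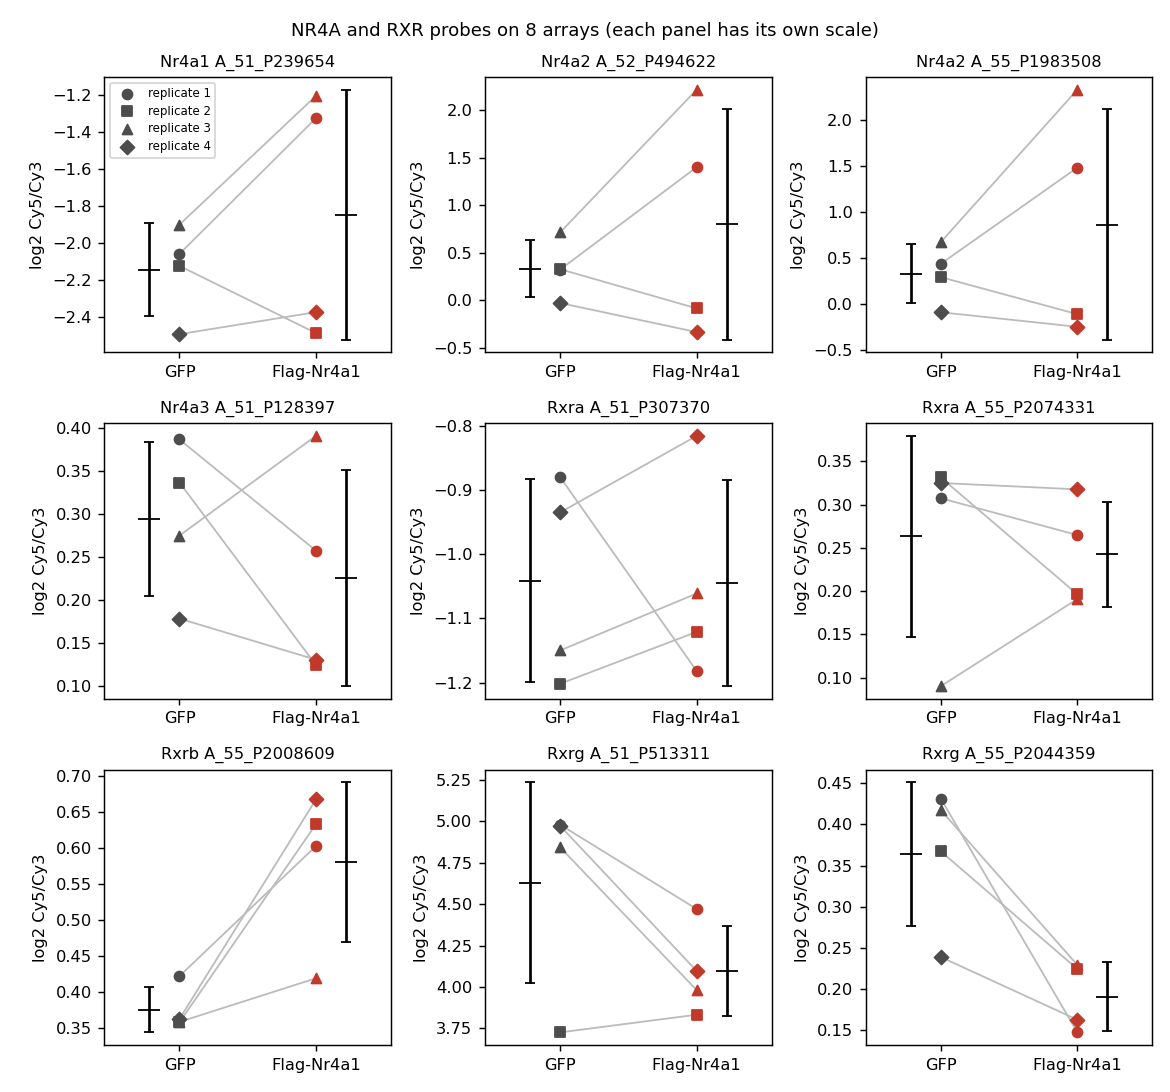
Log2 ratio of culture (Cy5) over reference (Cy3) RNA for the 9 probes, with GFP-labelled arrays in grey, Flag-Nr4a1-labelled arrays in red, grey lines joining pairs, and black bars for the mean and SD of 4 arrays. Nr4a1 and both Nr4a2 probes rose steeply in replicates 1 and 3 and not in replicates 2 and 4, while the Rxra values of both groups overlapped.

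Nr4a1 is the delivered gene, and its probe was read first as a check of the labels. Levels in GFP-labelled replicates 1 to 4 were -2.06, -2.12, -1.90 and -2.49. In Flag-Nr4a1-labelled replicates 1 to 4 they were -1.32, -2.49, -1.20 and -2.37. Replicates 1 and 3 of the Flag-Nr4a1-labelled arrays lay above every GFP-labelled array, replicates 2 and 4 lay within or at the edge of the GFP range, and the groups overlapped.

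In unprocessed signal the same arrays stood out. Cy5 for the Nr4a1 probe was 2115 to 3562 in the 4 GFP-labelled arrays and 6608, 2890, 8564 and 2506 in Flag-Nr4a1-labelled replicates 1 to 4. Cy3, which is the same reference RNA on every array, was 9924 to 12404. Over the 8 arrays the SD of the normalised log2 signal was 0.53 in Cy5 and 0.099 in Cy3, so most of the spread lay in the culture channel.

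The Nr4a1 difference was 0.30 ± 0.15 (log2, SE, n = 4 pairs), a 1.23-fold ratio with a 95% interval of 0.97 to 1.56, and it did not pass the test (limma adjusted p = 0.194). Within pairs it was 0.73, -0.36, 0.70 and 0.12. The spread left after the pair and the group was larger for this probe than for 99.5% of probes tested. The value depended on single replicates. Without replicate 1 or replicate 3 it was 0.15 (adjusted p = 0.588) and 0.16 (adjusted p = 0.528), and without replicate 2 it was 0.52 and passed (adjusted p = 0.00704). Those 3 limma fits called 15.7%, 20.7% and 16.3% of all probes. It also passed when loess was replaced by median centring (0.40, adjusted p = 0.0166), where 21.4% of all probes were called. Whether this probe can read the delivered transcript is not known here, so the arrays are named by their labels throughout.

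Nr4a2, also called Nurr1, is best known as the factor needed for dopamine neurons, and in hippocampal neurons it is induced by activity. Probe A_52_P494622 read 0.32, 0.33, 0.72 and -0.03 in GFP-labelled replicates 1 to 4. It read 1.402, -0.08, 2.22 and -0.33 in Flag-Nr4a1-labelled replicates 1 to 4. Again replicates 1 and 3 lay above all GFP-labelled arrays, and replicates 2 and 4 lay below all of them, so the Flag-Nr4a1-labelled arrays took both the highest and the lowest places.

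The second Nr4a2 probe, A_55_P1983508, gave the same picture, with pair differences of 1.04, -0.40, 1.65 and -0.16 beside 1.08, -0.41, 1.50 and -0.31 for the first. Cy5 signal of A_52_P494622 reached 3320.5 in Flag-Nr4a1-labelled replicate 3 against 280 in replicate 4 of that group, while Cy3 stayed between 368 and 455.5 on the 8 arrays. Mean differences were 0.47 ± 0.27 (SE, n = 4 pairs; limma adjusted p = 0.248) and 0.53 ± 0.27 (adjusted p = 0.189). Neither passed the test. Without replicate 3 they were 0.12 (limma adjusted p = 0.764) and 0.16 (adjusted p = 0.654), and without replicate 1 they were 0.26 and 0.37. Without replicate 2 they were 0.76 (adjusted p = 0.0402) and 0.85 (adjusted p = 0.0216), and with median centring 0.55 (adjusted p = 0.0193) and 0.61 (adjusted p = 0.00831), which pass.

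Batch 1 and batch 2 differed for Nr4a2 as values, at a mean of 0.72 over replicates 1 to 3 and -0.31 in replicate 4 for A_52_P494622. The test of that difference had an adjusted p of 0.905, the lowest of any member. For Nr4a1 the values were 0.36 and 0.12 (adjusted p = 0.959 for the interaction, limma).

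Nr4a3, or NOR-1, was not measurable with these arrays. Of its 80 spots, 2 were well above background in Cy5, 1 on GFP-labelled replicate 1 and 1 on Flag-Nr4a1-labelled replicate 1. Mean Cy5 signal per array was 41.2 to 58.2 over local backgrounds of 29.6 to 31.1, with the 2 groups overlapping. The probe was therefore not tested, and no fold is given.

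Nr4a1 and Nr4a2 rose and fell together over the arrays. With A_52_P494622 for Nr4a2, Pearson's r was 0.964 (n = 8 arrays, exact permutation p = 0.000298, adjusted p = 0.00298 over the 10 pairs of the 5 tested genes). Spearman's rho was 0.881 (exact permutation p = 0.00724, adjusted p = 0.0724). The 8 arrays belong to 2 groups and 4 pairs and so are not fully independent. With the group means taken out r was 0.961. In the 6 arrays of batch 1 it was 0.967 (exact permutation p = 0.00278, adjusted p = 0.0278).

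Leaving out the 2 arrays farthest from the Nr4a1 median, Flag-Nr4a1-labelled replicates 1 and 3, gave r = 0.890 (exact permutation p = 0.0278, n = 6) and rho = 0.714 (exact permutation p = 0.136). Over the same 6 arrays Rxrg had r = 0.891 with Nr4a1 (exact permutation p = 0.0514) and r = 0.928 with Nr4a2 (exact permutation p = 0.0194), so an r of that size over 6 arrays was not particular to Nr4a1 and Nr4a2. In all these correlations Rxrg was read by A_55_P2044359 and Rxra by A_55_P2074331, their probes of highest Cy5 signal. Their other probes were left out. Among the other 9 pairs of genes the smallest p was that of Rxrb and Rxrg, with r = -0.718 (exact permutation p = 0.0434, adjusted p = 0.217). Nr4a1 had r = -0.341 with Rxra, -0.0986 with Rxrb and -0.114 with Rxrg, none of which passed.

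**Figure D2:**
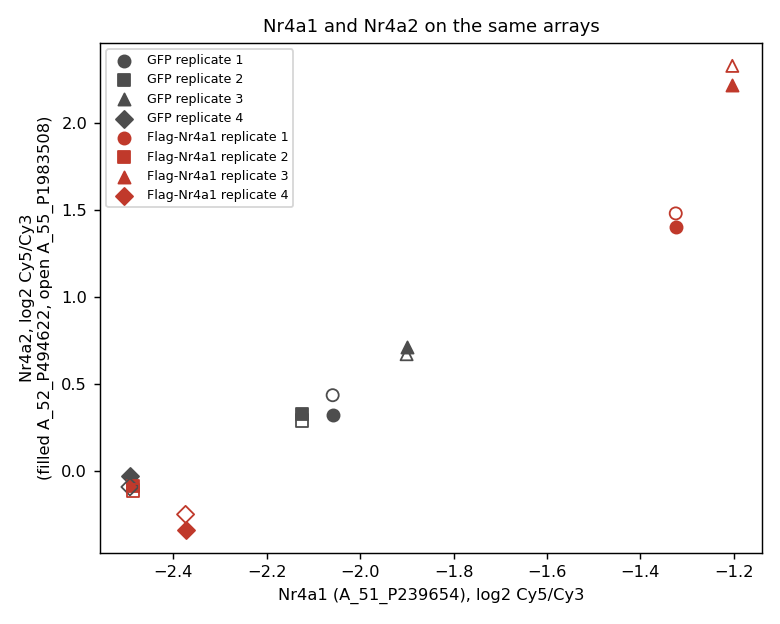
Log2 ratio of Nr4a1 (horizontal) and of both Nr4a2 probes (vertical) on each of the 8 arrays, with GFP-labelled arrays in grey and Flag-Nr4a1-labelled arrays in red. The points lie along 1 rising line (r = 0.964 for the filled points), with Flag-Nr4a1-labelled replicates 1 and 3 at its upper end and replicates 2 and 4 at its lower end.

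The genes whose levels followed the NR4A genes most closely were ranked over 14967 named genes and the 8 arrays, as a description with no test. Those most like Nr4a1 were Egr1, an activity-induced zinc finger factor (r = 0.978), Hic1 (0.975), Gcc1 (0.974), Npas4, a neuron-specific activity-induced factor (0.972), and Midn (0.972). Those most like Nr4a2 were Nab2, a corepressor that binds EGR proteins (r = 0.992), Npas4 (0.991), Csrnp1 (0.987), Gm13889 (0.987) and Midn (0.982). Npas4 and Midn were on both lists.

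Npas4 showed the pattern in full. Its levels in GFP-labelled replicates 1 to 4 were 1.98, 2.17, 2.23 and 1.72, and in Flag-Nr4a1-labelled replicates 1 to 4 they were 3.09, 1.51, 3.65 and 1.46. As with Nr4a2, replicates 1 and 3 were above all GFP-labelled arrays and replicates 2 and 4 below all of them. Egr1 differed by 1.27, -0.22, 0.95 and 0.61 within pairs. The Egr1 call (0.65 ± 0.18, SE, limma adjusted p = 0.0280) was lost without the pair block (adjusted p = 0.230).

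Among 23 tested immediate early genes other than the NR4A genes, 11 rose and 1, Jun, fell, which is 52.2% called beside 23.8% of all probes. Fosl2, an AP-1 subunit, rose by 0.78 ± 0.14 (SE, n = 4 pairs; limma adjusted p = 0.00265), and Egr4 by 0.60 ± 0.12 (adjusted p = 0.00639). Arc, which encodes a synaptic protein that drives AMPA receptor removal, rose by 1.34 ± 0.31 (adjusted p = 0.0108). Nptx2, a secreted pentraxin that gathers AMPA receptors, rose by 0.45 ± 0.11 (adjusted p = 0.0139). That count depended on the fit. It was 4 without the pair block (20.6% of all probes called) and 5 with batch as the block (26.7%). It was 4 without replicate 1 and 5 without replicate 3, 5 at a normexp offset of 16 (19.1%), 6 with a trend and robust prior (24.4%) and 1 in the scanner software's own ratio (12.6%). The count ran from 4 to 15 with 1 replicate left out at a time, and from 0 to 17 over all settings. With slide as a random block, limma called 0 of the 121 genes of the 6 lists of related genes described here and further on (12 at an unadjusted p under 0.05), and with no spot left out of the background correction it called 3 of them (0.884% of all probes). Egr4 turned to -0.45 in the scanner software's own ratio and to -0.05 when no spot was left out of the background correction.

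In the immediate early genes too, replicates 1 and 3 stood above replicates 2 and 4. Their median pair difference was 0.63 in replicate 1 and 0.75 in replicate 3, against 0.040 in replicate 2 and 0.086 in replicate 4. In replicates 1 and 3, 20 of the 23 were higher in the Flag-Nr4a1-labelled array, and in replicates 2 and 4, 14 and 15 were. Arc was higher in 4 of 4 pairs, unlike Nr4a2.

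**Figure D3:**
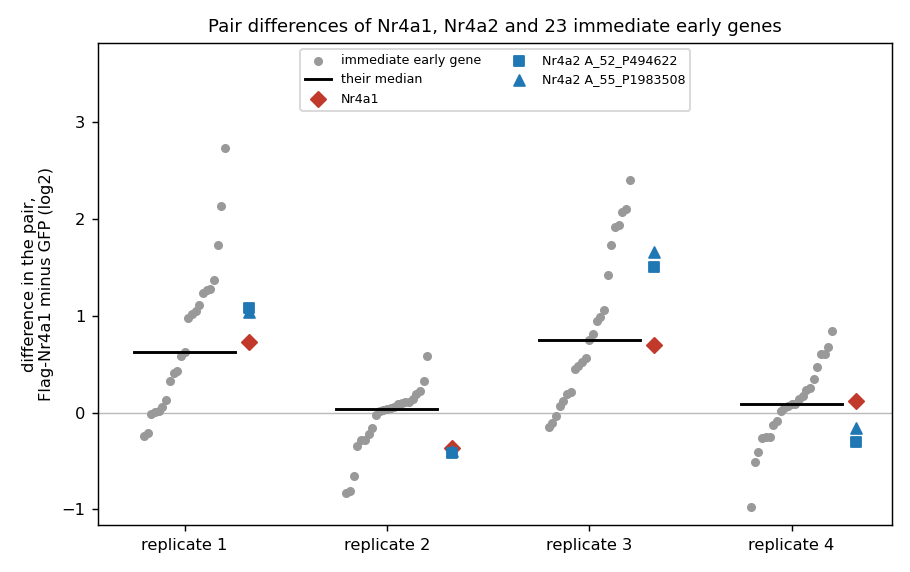
Difference in log2 ratio, Flag-Nr4a1-labelled minus GFP-labelled, within each pair for 23 immediate early genes (grey, median as a black bar), Nr4a1 (red) and both Nr4a2 probes (blue). Replicates 1 and 3 sit high for the list (medians 0.63 and 0.75) and for Nr4a1 and Nr4a2, and replicates 2 and 4 lie near 0 or below.

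Of the RXR genes, Rxra gave no difference that passed. Probe A_55_P2074331 read 0.31, 0.33, 0.09 and 0.32 in GFP-labelled replicates 1 to 4 and 0.26, 0.20, 0.19 and 0.32 in Flag-Nr4a1-labelled replicates 1 to 4. The groups overlapped, and the difference of -0.02 ± 0.06 (SE, n = 4 pairs; limma adjusted p = 0.841) had a 95% interval of -0.16 to 0.12. Probe A_51_P307370 was dim, with Cy5 signals of 65 to 93 and well above background on 3 of 4 arrays in each group. Its difference was -0.003 ± 0.078 (adjusted p = 0.983), with an interval of -0.18 to 0.17. Both intervals stayed within 0.18 of 0 on the log2 scale in this fit. For the dim probe that does not bound the change in RNA. Its group means were -1.04 here, nearer 0 than the -2.41 to -1.87 of the scanner software's ratio. With no spot left out of the background correction its difference was 0.22 ± 0.22.

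Rxrb was called higher, but not in the culture channel alone. Its levels were 0.42, 0.36, 0.36 and 0.36 in GFP-labelled replicates 1 to 4 and 0.60, 0.63, 0.42 and 0.67 in Flag-Nr4a1-labelled replicates 1 to 4. Replicate 3 of the latter lay just under the highest GFP-labelled array, and the other 3 lay above all of them. The difference was 0.21 ± 0.06 (SE, n = 4 pairs), 1.15-fold, and all 4 pairs went up (limma adjusted p = 0.0414). Of 23 other settings, 8 kept the call. It was lost without replicate 1 (limma adjusted p = 0.0920), 2 (0.168) or 4 (0.140), at a normexp offset of 16 (0.0730) and in the scanner software's ratio (0.0866).

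The channels were then fitted separately. The Cy5 channel alone gave a Rxrb difference of 0.06 ± 0.07 (limma adjusted p = 0.505; 28.4% of all probes were called in that fit). The Cy3 channel alone gave -0.14 ± 0.03 (adjusted p = 0.0504). Reference signal was 8246 to 8754 on the GFP-labelled arrays and 7492 to 7844 on the Flag-Nr4a1-labelled arrays, with no overlap, although the reference RNA was the same product on all arrays. How many of all probes separate so in Cy3 was not counted. The Cy3 values came from the reference channel, but they were rebuilt from loess ratios and matched average intensities and so carry part of Cy5. They gave calls for 3047 of 25780 probes (11.8%). Slide and transgene cannot be told apart in that channel, nor in Cy5 or the ratio.

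Rxrg, the RXR with the most restricted expression, which in the brain marks striatum and maturing oligodendrocyte lineage cells among others, had 2 probes that did not behave alike. For A_51_P513311, Cy5 signal was 2578, 3032, 2729 and 2564 in GFP-labelled replicates 1 to 4. It was 1780, 1509, 1664.5 and 1144 in Flag-Nr4a1-labelled replicates 1 to 4. Every Flag-Nr4a1-labelled array was below every GFP-labelled array in this unprocessed signal. How many of all probes separate so in Cy5 was not counted. In ratio, 23.8% of probes with a value on all arrays separated in one direction or the other.

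In Cy5 alone A_51_P513311 fell by 0.93 ± 0.07 on the log2 scale (SE, n = 4 pairs), 1.90-fold lower with a 95% interval of 1.69 to 2.14, at limma adjusted p = 4.52e-05. With each replicate left out in turn it ran from -1.002 to -0.88, with limma adjusted p from 0.000194 to 0.000569, in fits that called 18.4%, 18.5%, 23.3% and 23.1% of all probes without replicates 1 to 4. With slide as a random block the difference in Cy5 was -0.96 but was not called (adjusted p = 0.680).

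The ratio for A_51_P513311 was less stable, and its denominator was near background. Cy3 was well above background on 1 of the 8 arrays, GFP-labelled replicate 2, where it read 148 against 53 to 72.5 on the others. Levels were 4.98, 3.73, 4.84 and 4.97 in GFP-labelled replicates 1 to 4 and 4.47, 3.83, 3.98 and 4.10 in Flag-Nr4a1-labelled replicates 1 to 4. The GFP-labelled array of replicate 2 was the lowest of all 8, so the groups overlapped in ratio though not in Cy5. The difference was -0.54 ± 0.14 (limma adjusted p = 0.0191), at -0.51, 0.11, -0.86 and -0.88 within pairs. Without replicate 2 it was -0.75. It turned to 0.65 in the scanner software's own ratio (adjusted p = 0.519), and it lost its call without replicate 1, 3 or 4 and without the pair block (adjusted p = 0.140).

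The other Rxrg probe, A_55_P2044359, had a bright reference. Its levels were 0.43, 0.37, 0.42 and 0.24 in GFP-labelled replicates 1 to 4 and 0.15, 0.22, 0.23 and 0.16 in Flag-Nr4a1-labelled replicates 1 to 4. The groups did not overlap, a separation that 23.8% of probes with a value on all arrays showed in one direction or the other. The difference was -0.17 ± 0.06 (SE, n = 4 pairs), lower in 4 of 4 pairs, and missed the threshold (limma adjusted p = 0.0664). In Cy5 alone it was 0.03 ± 0.07 (adjusted p = 0.788), and in Cy3 alone 0.20 ± 0.07 (adjusted p = 0.104). The 1.90-fold fall in Cy5 signal was thus seen by 1 probe for Rxrg and not by the other. Both probes carry the same transcript accession, and which part of the transcript each reads is not known here. Among markers of the oligodendrocyte lineage, Mbp fell by 0.94 (limma adjusted p = 6.03e-05) and Pdgfra rose by 0.76 (adjusted p = 3.05e-05), and their part in the Rxrg values was not tested.

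**Figure D4:**
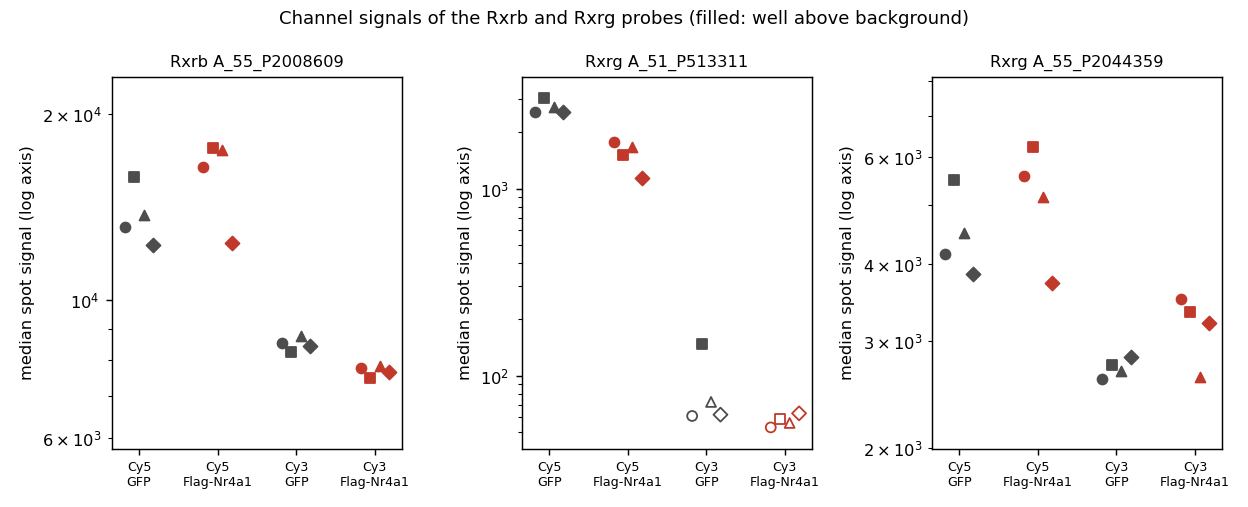
Median spot signal on a log axis for the Rxrb probe and both Rxrg probes, by channel and group, with circles, squares, triangles and diamonds for replicates 1 to 4 and open symbols where the signal was not well above background. The Cy5 signals of Rxrg A_51_P513311 separate the groups (2564 to 3032 against 1144 to 1780), and the Cy3 signals of Rxrb do so too (8246 to 8754 against 7492 to 7844). How many of all probes separate so in a single channel was not counted.

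The receptors that pair with RXR were read next. Of 12 tested, Rarb, a retinoic acid receptor that is itself induced by retinoic acid, rose by 0.49 ± 0.07 (limma adjusted p = 0.000753) and Nr1h3, which encodes LXRα, fell by 0.22 ± 0.07 (adjusted p = 0.0373). The other 10 were not called, among them Thra at 0.14 and Rara at -0.17, and the share of 16.7% is near the 23.8% over all probes. In the slide fit neither call remained. The median difference was -0.004 over the list.

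Of 23 tested genes reported as RXR heterodimer targets, 6 rose and 3 fell (39.1% called beside 23.8% of all probes, median 0.06). None of these calls remained with slide as a random block, and 6 genes were called without replicate 4 (17.6% of all probes). Over all settings the count ran from 0 to 12. Cyp26a1 and Cyp26b1, which encode the enzymes that break down retinoic acid, fell by 0.91 ± 0.07 (limma adjusted p = 1.13e-05) and 1.05 ± 0.11 (adjusted p = 9.03e-05). Hr, a corepressor gene under thyroid hormone control, rose by 0.72 ± 0.07, and Rarb is on this list too. The retinoic acid targets among those named thus took both directions.

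Upstream of the NR4A genes, 10 of 22 tested regulators were called, 4 higher and 6 lower (45.5% beside 23.8% of all probes, median -0.01). The count was 6 with median centring or without replicate 1, and none of the calls remained with slide as a random block. Hdac9, a class IIa deacetylase that holds MEF2 factors inactive, fell by 1.09 ± 0.07 (limma adjusted p = 4.60e-06), and Hdac5, of the same class, by 0.31 ± 0.06. Rps6ka3, a kinase that phosphorylates CREB, rose by 0.55 ± 0.06, and Atf1, a CREB relative, by 0.44 ± 0.07. Among 20 cofactors of NR4A proteins, 4 rose and 1 fell (25% beside 23.8% of all probes, median -0.02), with 1 called without replicate 1, 2 or 4 and none in the slide fit. The cofactor count reached 6 with a replicate left out, and ran from 0 to 9 over all settings. The acetyltransferase gene Kat2b rose by 0.26 ± 0.06, Ncoa1 by 0.24 ± 0.06 and the kinase gene Mapk8 by 0.27 ± 0.07.

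Of 24 tested genes listed as NR4A targets, mostly from endocrine, muscle and dopamine cells, 7 rose and 4 fell (45.8% beside 23.8% of all probes, median -0.03). None of these calls remained with slide as a random block, Th included (limma adjusted p = 0.371). Th, the rate-limiting enzyme of dopamine synthesis and a target of Nr4a2 in dopamine neurons, rose by 1.09 ± 0.06 (limma adjusted p = 2.10e-06). Other listed genes of dopamine cells took both directions, as Ret rose by 0.92 ± 0.09 and Slc6a3 fell by 0.86 ± 0.06, both called. Slc2a4, the insulin-responsive glucose transporter of muscle, rose by 0.96 ± 0.06, and Akr1c18, a steroid-converting enzyme with close paralogs, fell by 1.96 ± 0.07. Ngfr, the low-affinity neurotrophin receptor, rose by 1.97 ± 0.08. The place of Ngfr and of Prlr on this list is less sure, and without them 9 of 22 were called (40.9%). These lists were drawn up with results of these data known, so their counts are descriptions and give no independent evidence. Over the 6 lists 48 of 121 different genes were called (39.7%).

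Across all processing settings the direction of Nr4a1, Nr4a2 and Rxrb was the same, and that of both Rxra probes and both Rxrg probes was not.

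**Figure D5:**
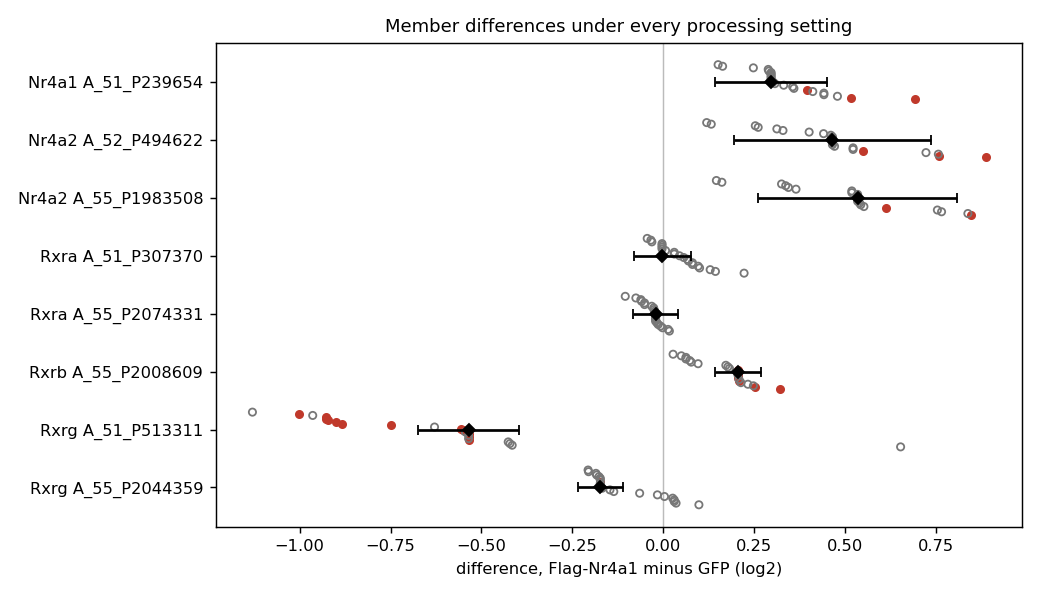
Difference in log2 value, Flag-Nr4a1-labelled minus GFP-labelled, for the 8 tested probes, with a black diamond and SE bar for the reported value, red dots for other settings in which the probe was called and open dots for those in which it was not. Nr4a1 and Nr4a2 lie above 0 throughout and are called in a few settings, and Rxrg A_51_P513311 runs from -1.13 to 0.65.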

How the data were processed

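RNA of 8 samples of cultured neurons, 4 per transgene, was measured on 2-colour arrays. Per the file headers, Agilent Feature Extraction 11.0.1.1 gave each spot median signal and background intensities and a log10 ratio. The authors' deposited value table of 24275 probes holds log2 ratios with scale, centring and direction unstated, and was read as culture over reference because its columns followed the scanner ratios (r 0.998 to 1.00, medians 0.024 to 0.031). The submitters' processing notes name limma without settings. Both batch 2 columns of the table are shifted alike against the scanner ratios (r = 0.972).

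From the intensities, normexp (offset 50) without spots of non-uniform background, loess within arrays and limma 3.58.1 in R 4.3.3 (lmFit, eBayes, two-sided) were run, with pair as a block and Benjamini-Hochberg adjustment over 25780 probes with Cy5 well above background on at least 4 of 8 arrays. For single channels, loess ratios and average intensities were quantile-matched between arrays, so each channel still carries part of the other. The pair block rests on the pair tag in the labels. Deviations from group means correlated at -0.12, 0.28, -0.023 and 0.43 within pairs 1 to 4. Probes were named by RefSeq accession (26575 with a symbol, 12854 without), and a gene in a list by its brightest tested probe. The main fit was tested on simulated data, with noise independent between arrays and no slide effect. That test therefore cannot separate slide from transgene.

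The members, the lists and the removal of non-uniform spots were chosen with earlier results of these data known. Genes named are all member probes, the 4 of smallest p in each list and the 5 most correlated with Nr4a1 and with Nr4a2. Some genes of the lists are not reported here. Jun, Prlr, Ret, Slc6a3, Mbp, Pdgfra, Csf1r, the other microglial markers and the fibroblast and meningeal markers were named after their values were seen. The alternatives were other background corrections, normalisations, filters, blocks and priors, Cy5 alone, and each replicate left out. The Cy3 fit and the Cy5 fits with replicates left out, without the block or with slide were added after seeing the data.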

Additional observations from a re-analysis of the deposited data

Results flagged for a closer look

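Of 18 groups of 4 arrays examined, 9 probes in 2 groups, 3 held an array far from the other 3, and chance alone marks about 1 group in 20. All 3 are GFP-labelled arrays and RXR probes. GFP-labelled replicate 3 was the lowest for Rxra A_55_P2074331, at a log2 ratio of 0.0904 against 0.31 to 0.33 in the others. GFP-labelled replicate 1 was the highest for Rxrb A_55_P2008609, at 0.422 against 0.36 in each of the others. GFP-labelled replicate 2 was the lowest for Rxrg A_51_P513311, at 3.73 against 4.84 to 4.98, and is the array on which the reference signal of that probe was 148. No difference between batch 1 and batch 2 passed the test for any member.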

How the results depend on the processing

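Values here are log2 differences, Flag-Nr4a1-labelled minus GFP-labelled, or counts. Median centring in place of loess brought Nr4a1 to 0.40, Nr4a2 A_52_P494622 to 0.55 and A_55_P1983508 to 0.61, all called, gave 1571 lower probes and put both Rxra probes above 0 (0.0303 for A_51_P307370, 0.0134 for A_55_P2074331). Left out 1 replicate at a time, Nr4a1 ran from 0.15 to 0.52, the Nr4a2 probes from 0.12 to 0.76 and 0.16 to 0.85, Rxra A_51_P307370 from -0.0441 to 0.0961 and A_55_P2074331 from -0.0616 to 0.0169, Rxrb from 0.17 to 0.25 and Rxrg A_51_P513311 from -0.75 to -0.42. In those fits 2055 to 2896 probes were higher, 1994 to 2435 lower and 30 to 42 list genes called, and r of Nr4a1 and Nr4a2 was 0.963 to 0.977, with p above 0.05 after adjustment without replicate 1 or 3. In Cy5 alone without replicates 1 to 4, Rxrb was 0.0769, 0.0271, 0.0959 and 0.0498, and Rxra A_51_P307370 was 0.129, 0.0694, 0.0665 and 0.0565. Rxrg A_55_P2044359 there was 0.00338, 0.0981 and 0.0353 without replicates 1, 3 and 4. There, without replicate 2, Nr4a1 was 0.69 and Nr4a2 A_52_P494622 0.89, both called.

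With all spots in the background correction, Rxrb was 0.18, Rxrg A_51_P513311 -1.13 and Rxra A_51_P307370 0.22, none called, with 128 probes higher, 100 lower and 3 list genes, and Egr4 at -0.0542. An offset of 16 gave 0.21, -0.42 and 0.0449. The scanner software's ratio gave 0.25, 0.65 and 0.14, with 1661 higher, 1600 lower, 21 list genes and Egr4 at -0.45. With slide as a random block the values were 0.23, -0.63 and 0.0303 (9 higher, 5 lower, 0 list genes by limma, 12 at an unadjusted p under 0.05), and in Cy5 alone 0.0728, -0.96 and 0.09998, with Rxrg A_55_P2044359 at 0.0260. Cy5 alone gave 0.0624 for Rxrb, 0.0804 for Rxra A_51_P307370, 0.0302 for Rxrg A_55_P2044359 and -0.0197 for Nab2. The authors' table put Rxra A_51_P307370 at 0.00639, and no filter on dim probes left Rxrb at 0.21 without a call. Hic1 ran from -0.0155 to 0.236 with a replicate left out.

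The pair block mattered for Rxrg A_51_P513311, whose value of -0.54 lost its call with no replicate block or with batch as the block, where Rxrg A_55_P2044359 was called (-0.17). In Cy5 without the pair block, Rxrb was 0.0624, Rxra A_51_P307370 0.0804 and Rxrg A_55_P2044359 0.0302. Without it 2702 probes were higher and 2599 lower, cofactor calls were 3 and RXR partner calls 1. The causes were not tested. Probes near background, Nr4a3 and Rxra A_51_P307370, limit what can be said of them.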
